A study of Arabidopsis thaliana with 8 samples.

Results

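The HD-Zip class I homeobox factors were followed through salt stress in seedlings of *Arabidopsis thaliana*. The members were set as a list of gene identifiers, chosen with earlier results of these data known. The list held 10 genes, of which 9 are among the 27207 genes analysed. They were *HB1* (AT3G01470), *HB5* (AT5G65310), *HB6* (AT2G22430), *HB7* (AT2G46680), *HB12* (AT3G61890), *HB13* (AT1G69780), *HB16* (AT4G40060), *HB21* (AT2G18550), *HB40* (AT4G36740) and *HB53* (AT5G66700). *HB1* has no value here and was not analysed, and the 9 others all passed the filter on low values.

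Class I HD-Zip proteins are plant transcription factors in which a homeodomain, which contacts DNA, is followed at once by a leucine zipper, through which they pair. As dimers they recognise a short palindrome, and many of them are known for responses to drought, salt and the stress hormone abscisic acid (ABA). *HB7* and *HB12* are sister genes that ABA and water deficit induce and whose products act on genes of the protein phosphatases 2C, the enzymes that hold ABA signalling in check.

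RNA sequencing was carried out on whole seedlings of 14 days that had grown for 5 days on half-strength medium and had then been moved to the same medium without NaCl (mock) or with 100 mM NaCl. WT seedlings were Col-0 without a mutation, and the other genotype carried the *idd4* allele, an insertion line for the zinc finger factor IDD4. The 4 groups were thus WT mock, *idd4* mock, WT NaCl and *idd4* NaCl, with 2 libraries in each and no other agent in any of them. The study asked how IDD4 takes part in salt tolerance, and the *HB7* locus was among those at which it examined the binding of IDD4.

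The libraries held between 5882615 fragments (*idd4* NaCl 1) and 13557480 fragments (*idd4* NaCl 2). A level is given below in scaled fragments, which is the number of fragments of a gene multiplied by one factor for its library, so that all libraries had nearly the same total. The transcript of *IDD4* itself, the gene disrupted in the mutant, had a level of 274 and 360 in WT mock, 477 and 436 in mock *idd4*, 414 and 428 in WT NaCl and 603 and 527 in *idd4* NaCl. It was therefore higher and not lower in the libraries labelled *idd4*, by 0.48 on the log2 scale (SE 0.13, treatments averaged, adjusted p = 0.999, limma), and where those fragments fall relative to the insertion was not tested. Of the 8 ABA and dehydration genes used to check the NaCl label, 4 rose with NaCl when genotypes were averaged and 0 fell, against 15.9% of all genes called in either direction. In WT 8 of 8 were higher in both NaCl libraries than in both mock libraries, against 42.5% of all genes, and in *idd4* 5 of 8 were (not *COR15A*, *RAB18* and *RD29B*), against 40.2%. The summed level of 12 leaf markers was 285000 to 517900 under NaCl and 652800 to 891600 without it, and that of 13 root markers was 1975 to 2517 and 2645 to 3883. Gene by gene the lists were mixed. With genotypes averaged, 8 leaf markers were lower with NaCl and 4 higher, and 6 root markers were lower and 7 higher. Their median log2 differences were −0.72 and 0.34, against 0.25 for all genes. In whole seedlings, fewer cells of a type and less RNA per cell cannot be told apart. The part of either in the results below was not tested.

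The proteins were compared first, because the family falls into sister pairs that are referred to throughout. They were translated from the TAIR10.1 reference and ranged from 217 residues (HB40) to 312 residues (HB5). Over the 45 pairs, the identity of the whole protein ran from 21.6% to 72.2% with a median of 25.8%, and that of the 60 residues of the homeodomain from 48.3% to 93.3% with a median of 63.3%. HB6 and HB16 were the closest pair, with 72.2% of the whole protein and 93.3% of the homeodomain in common. HB21 and HB40 shared 65.9% of the whole protein, and HB40 and HB53 shared 51.3%. HB7 and HB12 shared 60.5% of the whole protein and 86.7% of the homeodomain, whereas the closest of the other members to either of them was HB1, at 28.8% with HB12.

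The 250 bases before the annotated starts of *HB7* and *HB12* are printed because these sister genes had the largest NaCl differences of the family in the genotype average and because their promoters share a long identical run, which is in capitals. Both are from the TAIR10.1 assembly and read 5′ to 3′ on the minus strand, from chr2:19166968-19167217 for *HB7* and from chr3:22915394-22915643 for *HB12*.
HB7: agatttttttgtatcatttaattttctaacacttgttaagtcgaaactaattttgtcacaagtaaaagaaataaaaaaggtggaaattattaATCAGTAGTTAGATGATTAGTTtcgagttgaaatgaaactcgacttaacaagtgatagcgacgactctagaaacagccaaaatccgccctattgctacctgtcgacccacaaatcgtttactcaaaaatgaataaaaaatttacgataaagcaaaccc
HB12: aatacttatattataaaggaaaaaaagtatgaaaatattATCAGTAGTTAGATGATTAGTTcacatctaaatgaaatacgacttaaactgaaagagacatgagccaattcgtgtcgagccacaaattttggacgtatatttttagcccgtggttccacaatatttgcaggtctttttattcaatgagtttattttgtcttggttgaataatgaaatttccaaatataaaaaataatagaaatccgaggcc

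The shared run, ATCAGTAGTTAGATGATTAGTT, is 22 bases long. It lies 158 to 137 bases before the start of *HB7* and 211 to 190 bases before that of *HB12*. Of the promoters of this length of 26548 protein-coding genes, 2 held it on either strand, those of *HB7* and *HB12*, and the nuclear chromosomes held it 2 times in all. In the other 44 pairs of members, the longest identical run of the promoters had 7 to 11 bases. An alignment of the whole windows, run included, gave 50.2% identity for *HB7* and *HB12* and up to 53.6% for other pairs. No factor is assigned to the run here.

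Known motifs were also searched on both strands. The core of the ABA-responsive element, ACGTG, which bZIP factors of the ABA pathway bind, was in 0 of these windows for *HB7* and *HB12*, and 2 of 10 members had it (*HB5* and *HB40*), against 23.1% of all promoters. In windows of 1000 bases it was found in 8 of 10 members, against 54.6% of all promoters, with 1 match before *HB7* (869 bases from the start) and 4 before *HB12* (298 to 806 bases from the start). The letters AGACAA, taken as a core of sites of IDD proteins, were in 2 of 10 windows of 250 bases (*HB6* and *HB12*), against 19.5% of all promoters. They were in 5 of 10 windows of 1000 bases (*HB6*, *HB12*, *HB16*, *HB21* and *HB53*), against 57.9%. *HB7* had 0 matches to them in either window. The palindrome CAATNATTG of class I HD-Zip proteins was in 0 of 10 windows of either length, against 0.915% and 3.45% of all promoters. The G-box CACGTG, which contains the ACGTG core, was found in *HB40* alone of the members, against 6.57% and 14.9%. A match is a description of letters and not a site.

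To compare members with each other, levels were divided by the length of their annotated exons. In WT mock the order per kb of exon was *HB6* (1311 scaled fragments per kb), *HB5* (809), *HB16* (598), *HB7* (275), *HB13* (80.6), *HB12* (53.4), *HB40* (14.4), *HB53* (14.2) and *HB21* (5.02), as means of 2 libraries. Each neighbour in that order was separated by non-overlapping libraries except *HB40* and *HB53*, which overlapped. In WT NaCl *HB7* reached 1200 per kb, with libraries at 862 and 1539, and stood second after *HB6* at 1567, with libraries at 1555 and 1579. *HB5* and *HB16* overlapped there, and so did *HB12* and *HB13*. In *idd4* NaCl *HB7* was first by mean, at 1682 per kb, but its libraries (1262 and 2103) overlapped those of *HB6* (1332 and 1725). The family thus held 3 members at a high level in every group, a group of 3 whose level moved with NaCl, and 3 members with few fragments.

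**Figure D1:**
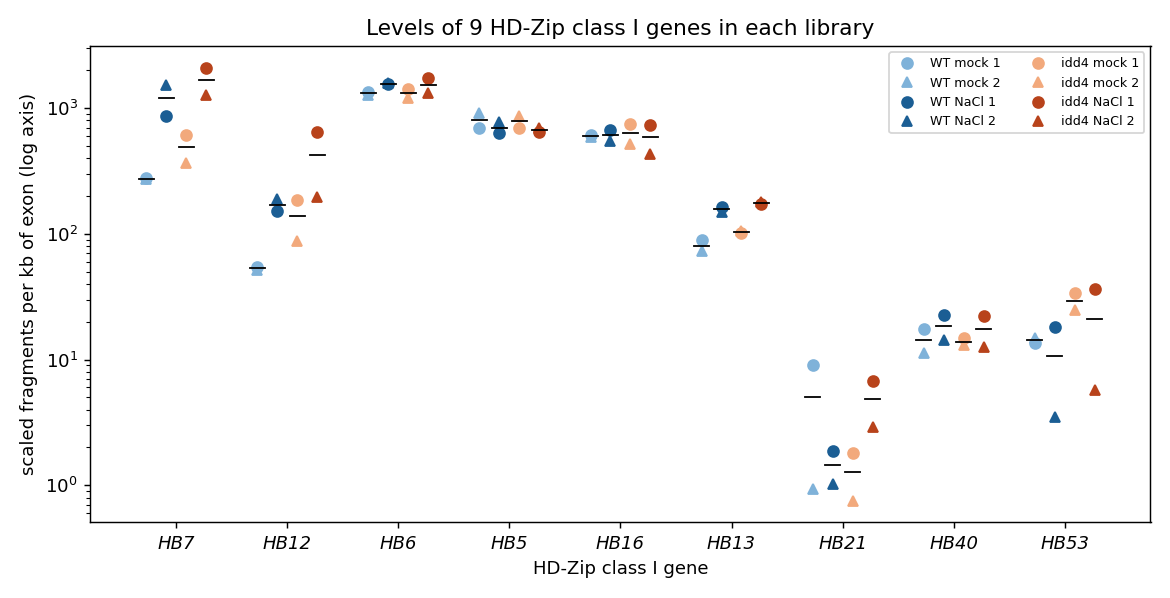
Level of each measured HD-Zip class I gene, in scaled fragments per kb of annotated exon on a log axis. Circles and triangles are the libraries numbered 1 and 2 of each group, and black bars are means of the 2 libraries; *HB7*, *HB12* and *HB13* lie higher in the NaCl libraries of each genotype, whereas *HB21*, *HB40* and *HB53* lie under 40 per kb throughout.

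With NaCl, *HB7*, *HB13* and *HB12* were the members that rose. *HB7* rose 3.79-fold, *HB12* 2.94-fold and *HB13* 1.81-fold when genotypes were averaged, and no member fell by the test. In that comparison 3 of 9 members passed at an adjusted p under 0.05 (limma), against 15.9% of the 21820 genes tested. Within WT 2 of 9 passed (*HB7* and *HB13*), against 2.4% of all genes, and within the libraries labelled *idd4* 1 of 9 passed (*HB7*), against 2.96%. The median of all genes tested was itself 0.25 higher on the log2 scale with NaCl, so each difference below should be read against 0.25. The median of the 9 members was 0.26 in WT, 0.25 in *idd4* and 0.23 in the average, next to that of all genes. Both NaCl libraries lay above both mock libraries for 4 of 9 members in WT (*HB7*, *HB12*, *HB13* and *HB6*), against 42.5% of all genes, and for 4 of 9 in *idd4* (*HB7*, *HB12*, *HB13* and *HB21*), against 40.2%, so that such a separation is near the background.

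*HB7* had a level of 410 and 402 scaled fragments in WT mock, 1271 and 2268 in WT NaCl, 894 and 543 in *idd4* mock and 3100 and 1860 in *idd4* NaCl. All 4 NaCl libraries were above all 4 mock libraries, and the 2 WT mock libraries nearly coincided whereas the others spread. The log2 difference was 2.06 in WT (SE 0.34, n = 2 and 2, adjusted p = 0.0216, limma), 1.78 in *idd4* (SE 0.34, adjusted p = 0.0334, limma) and 1.92 in the average (SE 0.24, adjusted p = 0.00219, limma). The call in the average held in each of the 8 fits that left out 1 library, with adjusted p of up to 0.0161 (limma). The call in WT was lost without WT mock 1 (adjusted p = 0.14), WT mock 2 (0.149) or WT NaCl 2 (0.108), and that in *idd4* without WT mock 1, WT mock 2, *idd4* mock 1, *idd4* mock 2 or *idd4* NaCl 1, with adjusted p of 0.0687 to 0.187 (limma). The call in WT was also lost with no filter (adjusted p = 0.139, limma) or no variance trend (0.0969). That in *idd4* was also lost with no filter (0.148), no variance trend (0.114), only the libraries compared (0.0936), edgeR (0.0526) or without both *idd4* libraries numbered 1 (0.241).

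*HB12*, which in addition to its part in the ABA response is known to restrain stem growth through a gibberellin biosynthesis gene, was lower per kb of exon. Its level was 57.8 and 54.7 in WT mock, 160 and 199 in WT NaCl, 198 and 92.8 in *idd4* mock and 685 and 206 in *idd4* NaCl. Within each genotype the NaCl libraries were above the mock libraries, but *idd4* mock 1 was as high as WT NaCl 2, and *idd4* NaCl 1 was more than any other library. The log2 difference was 1.65 in WT (SE 0.52, adjusted p = 0.135, limma), 1.46 in *idd4* (SE 0.52, adjusted p = 0.161, limma) and 1.56 in the average (SE 0.37, adjusted p = 0.0245, limma). In WT it passed with DESeq2 (adjusted p = 0.042), with only the libraries compared (0.0365, limma), without *idd4* NaCl 1 (0.0492) or *idd4* NaCl 2 (0.0486) and without both *idd4* libraries numbered 1 (0.0308), and in *idd4* with DESeq2 (0.0481). The averaged call was lost with no filter (adjusted p = 0.122, limma) or no variance trend (0.07), and in 5 of the 8 fits that left out 1 library, namely without WT mock 1, WT mock 2, *idd4* mock 2, WT NaCl 1 or WT NaCl 2, with adjusted p of 0.054 to 0.0817 (limma). The averaged estimate was 1.12 without *idd4* NaCl 1 and 1.99 without *idd4* NaCl 2. Within *idd4* it was 0.60 without *idd4* NaCl 1, and 2.33 and past the threshold without *idd4* NaCl 2 (adjusted p = 0.0326, limma).

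*HB13*, known for a role in the shape of cotyledons and leaves and in stress tolerance, was measured with little spread. Its level was 140 and 114 scaled fragments in WT mock, 260 and 235 in WT NaCl, 161 and 166 in *idd4* mock and 271 and 285 in *idd4* NaCl. The mock and NaCl libraries were apart in both genotypes, and the replicates differed by little. The log2 difference was 0.96 in WT (SE 0.20, adjusted p = 0.0447, limma), 0.76 in *idd4* (SE 0.20, adjusted p = 0.0798, limma) and 0.86 in the average (SE 0.14, adjusted p = 0.00616, limma). The call in WT was lost in all 8 fits without 1 library, with adjusted p of 0.0501 to 0.238, and also with median-of-ratios scaling (adjusted p = 0.106, limma), TMM scaling (0.103), no filter (0.0671), no variance trend (0.101), only the libraries compared (0.0909), edgeR (0.0978), DESeq2 (0.171) or without both *idd4* libraries numbered 1 (0.0845). The averaged call was lost in none of the 8 fits. Without both *idd4* libraries numbered 1 the averaged call was lost (adjusted p = 0.0564, limma).

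*HB5*, *HB6* and *HB16* are the abundant members, of which *HB6* is known as a negative regulator of ABA responses whose protein binds the phosphatase ABI1, *HB5* as a modulator of ABA responses in seedlings, and *HB16* for effects on leaf growth and flowering time. *HB6* had a level of 2232 and 2098 in WT mock, 2567 and 2607 in WT NaCl, 2350 and 1992 in *idd4* mock and 2849 and 2199 in *idd4* NaCl. The WT groups did not overlap and the *idd4* groups did. The averaged difference of *HB6* was 0.23 (SE 0.13, adjusted p = 0.237, limma), which is about that of the median gene.

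*HB5* ran from 1592 and 2104 in WT mock to 1439 and 1759 in WT NaCl, and from 1585 and 1997 in *idd4* mock to 1469 and 1599 in *idd4* NaCl. The groups overlapped in both genotypes. Its averaged difference was −0.21 (SE 0.15, adjusted p = 0.333, limma), or −0.46 relative to the median gene.

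*HB16*, the sister of *HB6*, was at 998 and 960 in WT mock, 1102 and 895 in WT NaCl, 1216 and 848 in *idd4* mock and 1207 and 713 in *idd4* NaCl. The spread between the *idd4* libraries of a treatment exceeded any difference between treatments. Its averaged difference was −0.06 (SE 0.19, adjusted p = 0.857, limma). The sister genes *HB6* and *HB16* therefore gave averaged differences of 0.23 and −0.06 side by side, a contrast that was not tested.

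*HB21*, *HB40* and *HB53* are known to act together in axillary buds, downstream of the branching repressor BRC1, to raise ABA through *NCED3*. *HB21* rested on 24 fragments in the 8 libraries together, 9 and 1 in WT mock, 2 and 1 in WT NaCl, 2 and 1 in *idd4* mock and 4 and 4 in *idd4* NaCl, and 5 of the 8 libraries were under 3 fragments. No difference was detectable at this depth. *HB40* rested on 11 to 22 fragments per library and had an averaged difference of 0.30 (SE 0.34, adjusted p = 0.556, limma), again close to the median gene.

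*HB53*, which is also linked to auxin and cytokinin in roots, measured 12.8 and 13.9 scaled fragments in WT mock, 17.0 and 3.26 in WT NaCl, 31.7 and 23.2 in *idd4* mock and 34.1 and 5.43 in *idd4* NaCl. Under NaCl the libraries split by number within both genotypes, the ones numbered 1 being several times higher than those numbered 2. The averaged difference was −0.81 (SE 0.61, adjusted p = 0.367, limma), and within WT it was 0.38 between the libraries numbered 1 and −1.81 between those numbered 2. The low values rested on 3 fragments in WT NaCl 2 and 7 in *idd4* NaCl 2. *BRC1* was at 0 to 2.0 scaled fragments in every library, under the floor of 3 fragments.

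**Figure D2:**
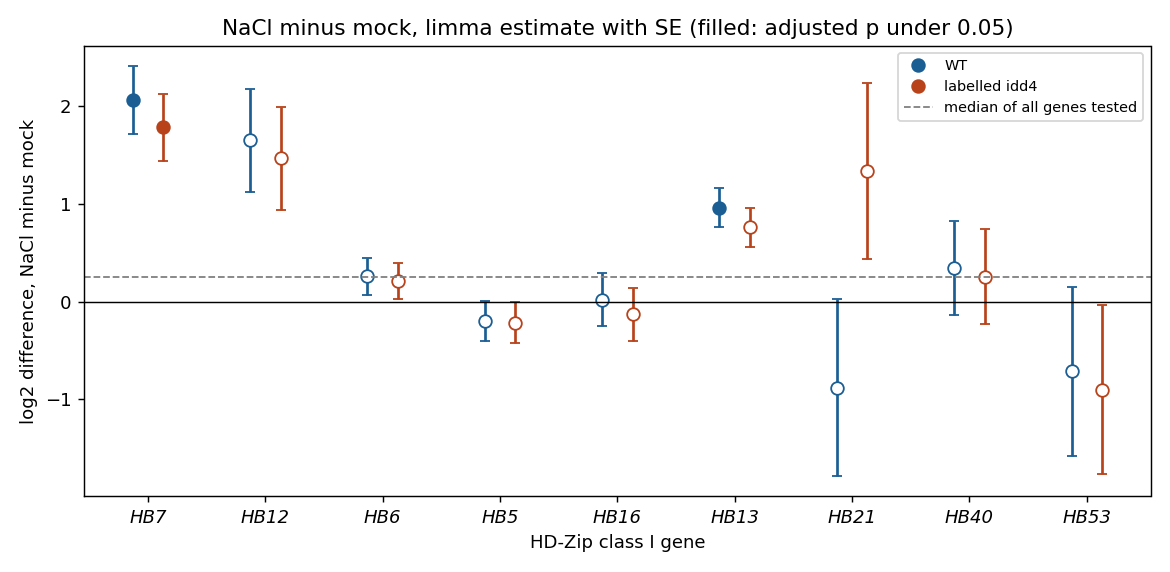
Log2 difference between NaCl and mock for each measured member, within WT (blue) and within the libraries labelled *idd4* (orange), as limma estimates with their SE. Filled points passed at an adjusted p under 0.05, and the dashed line is the median of all genes tested at 0.25; *HB7* is filled in both genotypes, *HB13* in WT, and the wide bars of *HB21* and *HB53* belong to genes with few fragments.

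The genotypes were then compared. No member passed in mock, in NaCl, in the average over treatments or in the interaction of genotype and NaCl, and neither did any other gene, so that the background was 0.0% in each of these 4 comparisons (limma). At an unadjusted p under 0.05, *HB7* and *HB12* were the 2 members found in mock and also in the average over treatments, and 0 members were found in NaCl or in the interaction. Over all genes the counts at that level were 274, 532, 640 and 203 of 21820 in mock, in NaCl, in the average and in the interaction. edgeR and DESeq2 on the recovered fragments likewise called 0 members in each of the 4 comparisons, and over all genes edgeR called 0 in each and DESeq2 3 in mock, 7 in the average and 0 in the other comparisons. Both libraries labelled *idd4* lay above both WT libraries for 4 of 9 members in mock (*HB7*, *HB12*, *HB13* and *HB53*), against 9.05% of all genes, and for 3 of 9 in NaCl (*HB12*, *HB13* and *HB21*), against 9.32%. Of these, *HB21* in NaCl rested on 4 and 4 fragments in *idd4* against 2 and 1 in WT. *HB53* in mock rested on 33 and 29 against 12 and 14. *HB7*, *HB12* and *HB13* ran alike over the libraries (Pearson's r of 0.79 to 0.92), so they are not independent members of these counts. No member lay wholly below WT in either treatment.

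For *HB12* the log2 difference between the libraries labelled *idd4* and WT was 1.25 in mock (SE 0.52, adjusted p = 1.0, limma), 1.07 in NaCl (SE 0.52, adjusted p = 1.0) and 1.16 in the average (SE 0.37, adjusted p = 0.999). Between libraries of the same number it was 1.76 and 0.75 in mock, and 2.09 and 0.05 in NaCl. The difference in NaCl was therefore carried by *idd4* NaCl 1, and the libraries numbered 2 were at 206 and 199 scaled fragments. Without both *idd4* libraries numbered 1, a choice made after seeing the data, it was 0.71 in mock, 0.20 in NaCl and 0.46 in the average.

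For *HB7* it was 0.78 in mock (SE 0.34, adjusted p = 1.0, limma), 0.50 in NaCl (SE 0.34, adjusted p = 1.0) and 0.64 in the average (SE 0.24, adjusted p = 0.999). Between libraries of the same number it was 1.12 and 0.43 in mock, and 1.29 and −0.29 in NaCl, so that under NaCl the libraries numbered 2 had the opposite order. Without both *idd4* libraries numbered 1 it was 0.42 in mock, 0.13 in NaCl and 0.28 in the average. The interaction, that is the NaCl difference of *idd4* minus that of WT, was −0.28 (SE 0.49) for *HB7*, −0.18 (SE 0.74) for *HB12* and −0.20 (SE 0.28) for *HB13*, each with adjusted p = 1.0 (limma).

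**Figure D3:**
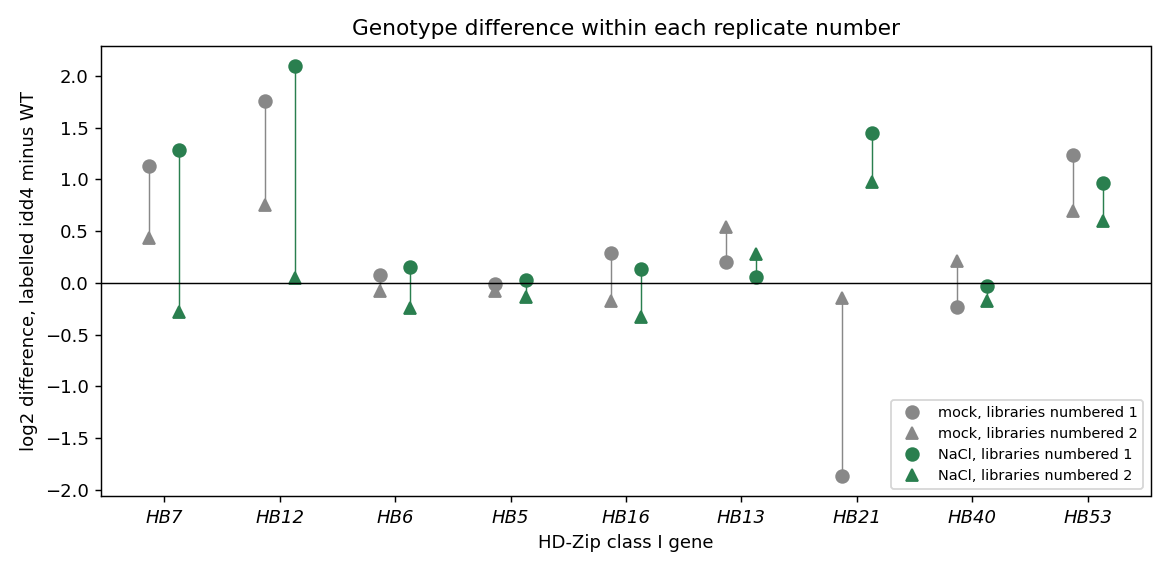
Log2 difference between the library labelled *idd4* and the WT library of the same number, in mock (grey) and in NaCl (green), where circles are libraries numbered 1 and triangles those numbered 2. The numbers are not known to pair libraries; for *HB7* and *HB12* the circles lie between 1.12 and 2.09 and the triangles between −0.29 and 0.75.

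The same libraries stood apart in some of the genes that report ABA. *RAB18*, a dehydrin gene induced by ABA, was at 220 and 245 scaled fragments in WT mock, 4020 and 603 in mock *idd4*, 671 and 1836 in WT NaCl, and 4486 and 2029 in *idd4* NaCl. *RD29B*, which ABA induces through paired response elements, was at 28.9 and 30.8, 828 and 110, 133 and 172, and 1693 and 364 in the same order of groups. In both genes *idd4* mock 1 and *idd4* NaCl 1 were the highest libraries of their treatment, as they were for *HB7* and *HB12*. *LEA7* and *P5CS1* were likewise highest in *idd4* mock 1 (380 and 689) and *idd4* NaCl 1 (687 and 3494). Not all ABA-responsive genes had this pattern. Under NaCl *RD29A* was highest in *idd4* NaCl 2 at 21068. *RD22*, *KIN1* and the cold and dehydration gene *COR15A* were highest in WT NaCl 2, at 8721, 1541 and 24443. The summed level of the 8 genes was 11230 and 13810 in WT mock and 25690 and 18640 in mock *idd4*. It was 22040 and 59910 in WT NaCl and 38760 and 49090 in *idd4* NaCl. None of the 8 was at 0 in any library. *idd4* NaCl 1 was also the library with the fewest fragments. The part of these differences between libraries in the genotype values of *HB7* and *HB12* was not tested.

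**Figure D4:**
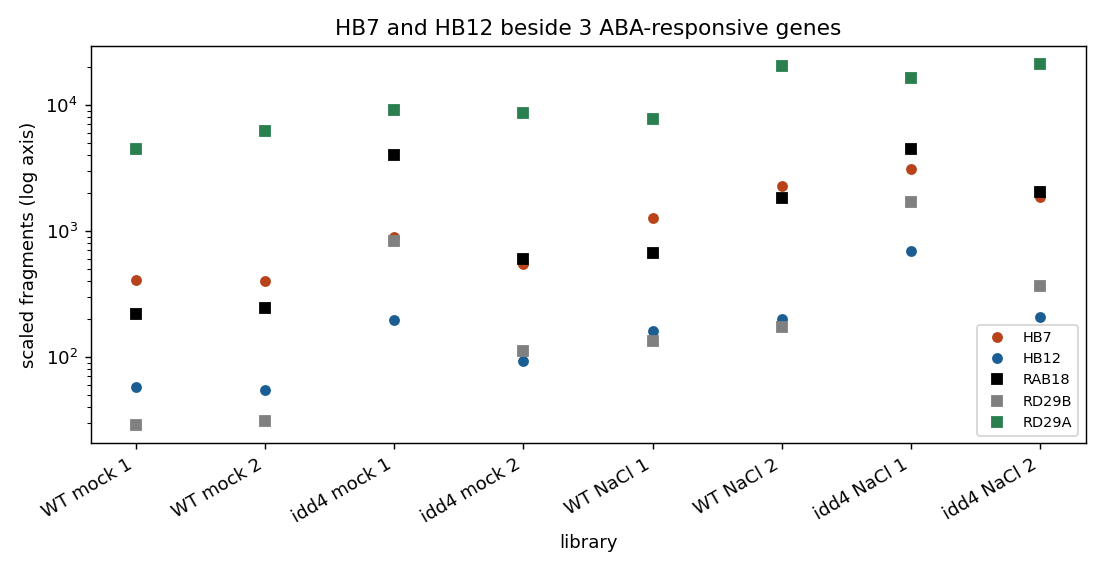
Levels of *HB7* and *HB12* (circles) and of the ABA-responsive genes *RAB18*, *RD29B* and *RD29A* (squares) in the 8 libraries, in scaled fragments on a log axis. *HB12*, *RAB18* and *RD29B* have their highest mock value in *idd4* mock 1 and their highest NaCl value in *idd4* NaCl 1, whereas *RD29A* is highest in *idd4* NaCl 2 at 21068.

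*HB7* and *HB12* were set against each other within each library. Scaling cannot move their ratio, and it moves the log2 measure below only through the 1 added to each value. Per kb of exon *HB7* exceeded *HB12* in every library, by 5.07 and 5.25 times in WT mock, 3.24 and 4.19 times in mock *idd4*, 5.68 and 8.16 times in WT NaCl and 3.23 and 6.47 times in *idd4* NaCl. Both libraries labelled *idd4* had a smaller excess than both WT libraries in mock, but the groups overlapped in NaCl. The mean of log2 *HB12* minus log2 *HB7* differed by 0.52 between genotypes, *idd4* being higher, with 4 libraries of each (two-sided exact permutation test, p = 0.143, adjusted over both tests p = 0.257), and was 0.37 lower in the 4 NaCl than in the 4 mock libraries (p = 0.257, exact permutation test, adjusted p = 0.257). The smallest p that 70 splits of these libraries allow is 0.0286. The splits did not hold treatment fixed in the test of genotype, or genotype fixed in the test of NaCl. Any effect of the other factor was thus part of the spread against which each difference was set.

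Likeness of pattern was described by Pearson's r of log2 levels over the 8 libraries, which share treatment and depth, so that no p is attached. Among the members, *HB7* was most like *HB12* (r = 0.92) and *HB13* (r = 0.91), and *HB6* followed (r = 0.79). *HB5* ran opposite to *HB7* (r = −0.57) and to *HB12* (r = −0.62), and *HB53* had no resemblance to *HB7* (r = −0.21). Among 15550 other genes with a mean of at least 50, those nearest to *HB7* were AT5G15500 (r = 0.996), AT1G22490 (r = 0.991), *DELTA-OAT* (AT5G46180, ornithine aminotransferase; r = 0.99), AT3G57780 (r = 0.99) and *CRL1* (AT2G33590; r = 0.985). In that list *HB12* was only number 491, *HB13* number 683 and *HB6* number 2855, so that values of r this high were common.

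AT5G15500 followed *HB7* closely, at 86.7 and 80.6 scaled fragments in WT mock, 217 and 102 in mock *idd4*, 380 and 600 in WT NaCl and 962 and 563 in *idd4* NaCl. The genes nearest to *HB12* were AT3G14595 (r = 0.986), *NYE1* (AT4G22920, which acts in chlorophyll breakdown; r = 0.985), AT2G41190 (r = 0.983), *ABI1* (AT4G26080; r = 0.973) and AT5G18130 (r = 0.972). *ABI1* encodes a protein phosphatase 2C, the class on whose genes HB7 and HB12 are known to act, and it was number 93 in the list for *HB7* (r = 0.96). The other phosphatase 2C genes compared, listed below, ran from number 24 (*HAI1*) to number 1032 (*PP2CA*) in the list for *HB12*.

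Genes that published work ties to the members were listed as 18, of which 16 were tested. With NaCl 8 of 16 rose and 0 fell in the average, against 15.9% of all genes called, with a median difference of 0.51 against 0.25 for all genes. In WT 3 of 16 rose (*PP2CA*, *HAI2* and *HAI3*), against 2.4% of all genes called. Of these, *HAI3* rested on 1 and 1 fragments in WT mock, under the floor of 3, and on 18 and 12 in WT NaCl. In *idd4* 0 of 16 passed, against 2.96% of all genes, and 14 of 16 had a positive difference. Of the 9 phosphatase 2C genes on the list, 7 rose in the average, and *HAB2* and *AHG1* did not pass, at 0.44 (SE 0.16, adjusted p = 0.0839, limma) and −0.19 (SE 0.72).

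*HAI2* was at 12.8 and 7.96 scaled fragments in WT mock, 89.2 and 19.2 in mock *idd4*, 115 and 197 in WT NaCl and 178 and 147 in *idd4* NaCl, a log2 difference with NaCl of 2.85 in the average (SE 0.44, adjusted p = 0.00492, limma). *HAI1* was at 36.4 and 33.8, 248 and 41.6, 336 and 223, and 961 and 222 in the same order, a difference of 2.55 (SE 0.57, adjusted p = 0.0204, limma). In *HAI1*, as in *HB12*, *idd4* NaCl 1 was far above the rest. *ABI1* rose by 0.57 (SE 0.14, adjusted p = 0.0299), *ABI2* by 1.12 (SE 0.25, adjusted p = 0.0186), *HAB1* by 1.35 (SE 0.23, adjusted p = 0.00762) and *PP2CA* by 0.74 (SE 0.13, adjusted p = 0.00811), all by limma.

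The other gene that rose was *JUB1*, a NAC factor gene known to act downstream of HB13, at 2.11 (SE 0.57, adjusted p = 0.0377, limma). *JUB1* rested on few fragments, 10 and 1 in WT mock and 9 and 8 in mock *idd4*. Genes on the list that did not pass with NaCl included the ABA receptor genes *PYL5* (−0.06, SE 0.18) and *PYL8* (−0.23, SE 0.24), the gibberellin biosynthesis gene *GA20OX1* (0.40, SE 0.26) and *NCED3*, the rate-limiting step of ABA synthesis (0.22, SE 0.25). *NCED3* was at 112 and 169 in WT mock, 253 and 240 in mock *idd4*, 175 and 144 in WT NaCl and 425 and 195 in *idd4* NaCl. The libraries labelled *idd4* were above WT in both treatments, by 0.84 in the average (SE 0.25, unadjusted p = 0.00813, adjusted p = 0.999, limma). Between genotypes 0 of 16 passed in any comparison.

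The 7 class I genes outside the members were also followed. *HB20* was at 110 to 187 scaled fragments, *HB23* at 79.2 to 112 and *HB3* at 35.8 to 76.0 over the 8 libraries, and *HB51*, *HB52*, *HB54* and *HB22* at 0 to 12.6. Of the 6 that passed the filter on low values, 0 passed the test for NaCl in either genotype or in the average. The shares of all genes called were 2.4% in WT, 2.96% in *idd4* and 15.9% in the average. Averaged differences of the 6 ran from −0.60 to 0.67. In the class II family, which is known for shade and auxin responses, 3 of 10 genes passed in the average, against 15.9% of all genes. They were *HAT22*, upward at 0.66 (SE 0.15, adjusted p = 0.0201), and *HAT1* and *HAT2*, downward at −1.41 (SE 0.16, adjusted p = 0.00152) and −0.74 (SE 0.17, adjusted p = 0.0222), all by limma. The class II median was 0.27, next to that of all genes.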

How the data were processed

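Groups were assigned from the labels. Per the labels, the authors used Trimmomatic 0.32, Cufflinks and the TAIR10 build. The deposited expression signal is named FPKM, but at least 99.9% of values per library lay within 0.05 of a whole multiple of one step, so it was read as a fragment count times one factor per library, not divided by gene length. How strand and near-identical genes were counted is not given in the sources used here; no measured member overlaps another annotated gene. Genes whose mean was 1 or more (21820) were modelled on log2(value + 1), the scale of all fold changes, by limma 3.58.1 (R 4.3.3; a mean for each group, variance trend, Benjamini-Hochberg adjustment across these genes). Alternatives were other pseudocounts, filters, scalings, variance models and blocks, leaving out libraries, and edgeR 4.0.16 and DESeq2 1.42.0 on recovered fragments. The limma fit alone was tested on simulated data, for NaCl in WT and for genotype in mock. Labels call the 2 libraries of a group biological replicates without saying how they were grown apart. Sequences came from TAIR10.1. Members, lists and tests were chosen with earlier results of these data known. Named genes were the members, the listed genes and the 5 most like *HB7* and *HB12*, and the listed genes given per library were picked after their values had been seen.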

Additional observations from a re-analysis of the deposited data

How the results depend on the processing

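The count of members called for NaCl in WT, 2, became 1 with median-of-ratios scaling, TMM scaling or edgeR, and 0 with no filter or no variance trend. It was 2 with DESeq2 and with only the libraries compared, but there *HB12* passed and *HB13* did not. In *idd4* the count of 1 became 0 with no filter, no variance trend, only the libraries compared, edgeR, or without both *idd4* libraries numbered 1 (chosen after seeing the data), and 2 with DESeq2. Leaving out 1 library gave 0 to 2 members in WT, 0 to 2 in *idd4* and 2 to 3 in the average. The count of 3 in the average was 2 to 3 in all alternatives, and 0 members were called for genotype or interaction in any. No called difference changed sign. With a replicate block the count in *idd4* was 2 (*HB13*, adjusted p = 0.0443, limma) and that in WT remained 2; in the block, the tests of *HB12* minus *HB7* gave exact permutation p = 0.125, the smallest possible. Same-numbered libraries deviated together with correlations of 0.041 to 0.397, and the numbers are not stated to pair libraries. Without 1 library, *HB12* minus *HB7* ranged from −0.628 to −0.184 for NaCl and from 0.366 to 0.742 for genotype. Over all genes, the other settings called 84 to 1564 genes for NaCl in WT, 12 to 1728 in *idd4* and 928 to 5551 in the average, and leaving out 1 library 55 to 698, 71 to 804 and 1546 to 3677. For genotype and interaction, where the main limma fit called 0 genes, the other settings called 0 to 45. The highest count, 45, came from limma with no filter, for genotype with treatments averaged. Depth limits *HB21* most, with 24 fragments in all, followed by *HB40* and *HB53*.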
